A study of Saccharomyces cerevisiae with 12 samples.

Results

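The 9 genes described here make, import or sense inositol and build the main membrane phospholipids of Saccharomyces cerevisiae. They are INO1, ITR1, INO2, INO4, OPI1, CHO1, PSD1, CHO2 and OPI3, taken by their systematic names from a table of 6692 gene entries, and all 9 passed the filter on low counts. Total RNA was sequenced from 4 groups of 3 libraries, all in the haploid strain background BY4741. Wild type carried its chromosomal TAF14 and the empty vector pRS313-HA3-SSN6. The deletion strain lacked TAF14 and carried the same empty vector. The TAF14 strain was the deletion with full-length TAF14 on that vector, and the W81A strain was the deletion with the W81A form of taf14 on it, in which a tryptophan of the YEATS domain is replaced by alanine. Every group, wild type included, therefore carried the HA3-SSN6 vector, and in the TAF14 and W81A strains the protein came from a plasmid. The series sets out to examine expression when the YEATS domain of Taf14, a reader of acetylated histone H3, cannot bind its ligand. The growth medium, and with it the supply of inositol and choline, is not given in the sources used here.

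Inositol made by the Ino1 enzyme, or taken up by the Itr1 permease, is joined to CDP-diacylglycerol to form phosphatidylinositol. The same CDP-diacylglycerol feeds phosphatidylserine synthase, Cho1, whose product is decarboxylated by Psd1 and then methylated by Cho2 and Opi3 to phosphatidylcholine. When inositol is scarce, the paired activators Ino2 and Ino4 bind a short element named UASINO and switch these genes on, and when inositol is plentiful the repressor Opi1 enters the nucleus and acts against them. INO1 is a textbook target of the chromatin remodellers SWI/SNF and INO80, and Taf14 is a subunit of both. Taf14 also belongs to TFIID, TFIIF, RSC and NuA3.

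The promoters are shown first, because the activator element is the feature that most of these genes share. The genes were chosen by name from a pathway known to be switched on through this element. Its count in them is therefore a description and not a test. In the 500 bases before the start codon, the UASINO core CATGTG, read on either strand, was present in 8 of the 9 genes. It was present in 789 of 6000 protein-coding genes of the reference (13.2%). OPI1 was the gene without it, which says only that these letters are not in its window. The longer UASINO consensus was in 0 of the 9 and in 4 of 6000. The intermediate form CATGTGAA, chosen after the sequences were seen, was in 6 of the 9 and in 87 of 6000 (1.45%). The core GGCGGC of URS1, the element of the Ume6 repressor, was in INO1, INO4 and OPI3, against 574 of 6000 genes (9.57%). The reference sequence is RefSeq assembly R64, which is the sacCer3 build. The 300 bases before INO1 lie at chrX:135934-136233 on the minus strand, and capitals mark the UASINO core on either strand.
INO1: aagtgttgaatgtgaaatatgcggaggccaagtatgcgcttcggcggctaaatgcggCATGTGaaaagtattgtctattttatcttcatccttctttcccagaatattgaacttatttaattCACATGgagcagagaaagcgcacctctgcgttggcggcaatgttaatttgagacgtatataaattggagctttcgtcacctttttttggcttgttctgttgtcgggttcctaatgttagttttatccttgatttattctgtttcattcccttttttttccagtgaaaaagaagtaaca

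For the other 7 genes with a core, 1 site each is printed as a stretch of 30 bases, on the strand that reads CATGTG, so that the flanks can be compared. Where CATGTG occurs on the strand of the gene, such a match is printed, and for CHO2 the one nearest to the start codon. The ITR1 site is at chrIV:1445671-1445700, INO2 at chrIV:699595-699624, INO4 at chrXV:111990-112019 and CHO1 at chrV:208616-208645. PSD1 is at chrXIV:317818-317847, CHO2 at chrVII:802161-802190 and OPI3 at chrX:573130-573159. The INO4, CHO1 and CHO2 stretches are read on the plus strand and the others on the minus strand.
ITR1: ccttccccaccgCATGTGaaaaaagctcga
INO2: aagtacaacacaCATGTGaatttttttcag
INO4: aggtgagaaaaaCATGTGaatattttgttt
CHO1: tttagatgggtcCATGTGaaagctcaaagg
PSD1: agcaggcacaagCATGTGgaaaatttgttc
CHO2: ttattcccttctCATGTGaagagttcacac
OPI3: tcaatgagagtgCATGTGgaaagttgcacc

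In the sites shown for PSD1 and OPI3, the core is followed by g rather than a. The core of PSD1 that is not printed is followed by a, and that of OPI3 by t. All cores of the 8 genes, printed or not, lay between 116 and 392 bases before the start codon. In INO2, and at 1 place in CHO2, matches on both strands overlap in the palindrome CACATGTG and mark a single place.

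**Figure D1:**
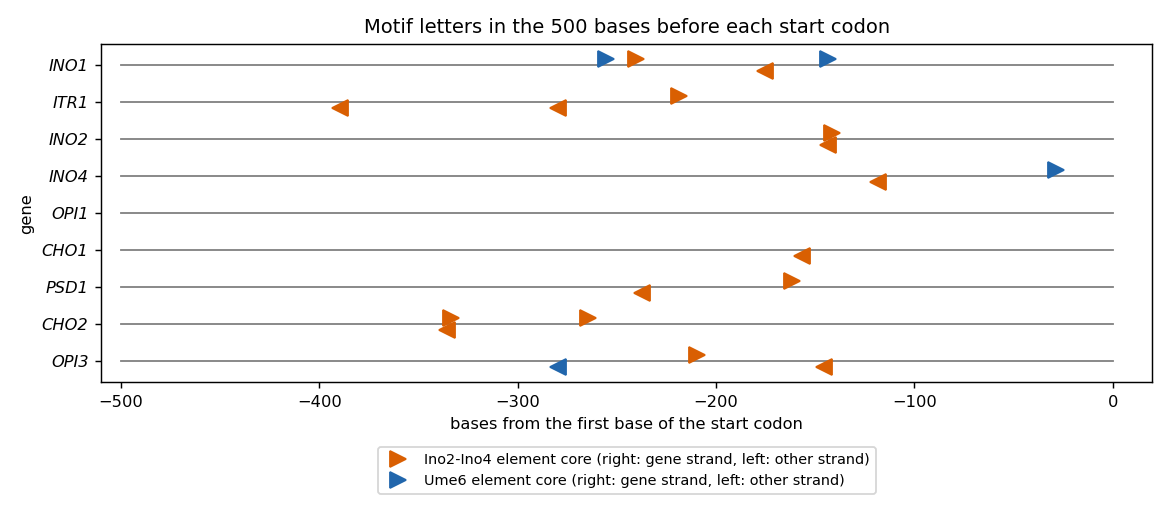
Position of the UASINO core (orange) and the URS1 core (blue) in the 500 bases before the start codon of each gene, in bases from the start codon, with the arrow giving the strand. A core of UASINO is present in 8 of the 9 genes and absent from the OPI1 window, and INO1 has 2 cores of each element.

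Levels are given as CPM, the counts of a gene divided by the scaled library size and multiplied by 1e6, with mean ± standard deviation over n = 3 libraries. Libraries held 9.01 to 11.7 M counts. TAF14 itself was nearly absent from the deletion strain (0.373 ± 0.153 CPM). It had 267 ± 111 CPM with the TAF14 plasmid, 206 ± 15.8 with the W81A plasmid and 136 ± 10.4 in wild type. Replicate 2 of the TAF14 strain stood apart, with 143 CPM of TAF14 against 355 and 302 in replicates 1 and 3. Genes of chromosome XII were shifted upward by 0.58 in log2 in this library and by 0.48 to 0.54 in the deletion libraries, against at most 0.0322 in the other 8. None of the 9 genes lies on chromosome XII. All 5 a-cell markers were detected in every group. Their summed level, here by unscaled library size, was 1519 to 1664 CPM in wild type and 1210 to 1687 in the TAF14 strain. It was 605 to 660 in the W81A strain and 247 to 251 in the deletion strain. The 4 alpha-cell markers together had 28.1 to 42.0 CPM in any library, also by unscaled library size. The part of these differences in the results below was not tested, apart from the repeats without chromosome XII and without single libraries.

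INO1 (YJL153C, chromosome X 134332-135933, minus strand, 1 coding exon), which encodes inositol-3-phosphate synthase, had 44.2, 48.6 and 33.8 CPM in wild type. The W81A libraries had 39.4, 32.1 and 31.8 CPM, the TAF14 libraries 16.3, 28.9 and 13.0, and the deletion libraries 10.5, 11.4 and 8.62. The deletion libraries were the lowest without overlap, the TAF14 libraries came next, and the W81A and wild type libraries overlapped. In these bulk samples, fewer cells expressing a gene and less RNA per cell cannot be told apart. In edgeR's quasi-likelihood test, INO1 was 4.15-fold lower in the deletion strain than in wild type (log2 fold change -2.05 ± 0.25 standard error, adjusted p = 2.55e-05). It was also lower than in the TAF14 strain, by 1.93-fold (-0.95 ± 0.26, adjusted p = 0.00929). With the TAF14 plasmid INO1 was 2.15-fold lower than in wild type (-1.11 ± 0.23, adjusted p = 0.00656).

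The W81A strain had more INO1 RNA than the TAF14 strain, by 1.75-fold (0.81 ± 0.23, adjusted p = 0.0168), and 3.38-fold more than the deletion strain (1.76 ± 0.25, adjusted p = 0.00012). Against wild type its difference of -0.30 ± 0.22 was not called (adjusted p = 0.343). The difference between the W81A and TAF14 strains moved with the libraries left out. Without replicate 2 of the TAF14 strain it was 1.23 ± 0.17 (adjusted p = 6.91e-05). Without replicate 1 or 3 of that strain it was 0.71 and 0.60 and the call was lost (adjusted p = 0.0558 and 0.0586), and likewise without W81A replicate 1 (0.70, adjusted p = 0.07). It was also lost when only the 6 libraries compared were fitted (0.81, adjusted p = 0.0521). Without replicate 2 of the TAF14 strain the difference of the deletion strain from the TAF14 strain was -0.53 ± 0.20 (adjusted p = 0.0351).

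ITR1 (YDR497C, chromosome IV 1443713-1445467), for the main myo-inositol permease, had the highest Pearson r with INO1 among the other 8 genes, whereas OPI3 had the highest Spearman rho (0.937). Over the 12 libraries, which come from only 4 groups, the log2 levels of ITR1 and INO1 had Pearson r = 0.959 and Spearman rho = 0.881. Wild type libraries had 1701, 1862 and 1527 CPM, W81A libraries 1716, 1688 and 1750, TAF14 libraries 1104, 1519 and 1148, and deletion libraries 1019, 1176 and 1063. Wild type and W81A libraries overlapped and lay above the others, and the TAF14 and deletion libraries overlapped each other. ITR1 was lower in the deletion strain than in wild type (-0.64 ± 0.11, adjusted p = 0.000491) and lower in the TAF14 strain than in wild type (-0.43 ± 0.11, adjusted p = 0.021, not held in 5 of 21 alternative settings). It was higher in the W81A strain than in the TAF14 strain (0.45 ± 0.11, adjusted p = 0.00863). For the W81A strain against wild type the value was 0.0181 ± 0.112 (adjusted p = 0.923).

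INO2 (YDR123C, chromosome IV 698554-699468) and INO4 (YOL108C, chromosome XV 111431-111886) encode the basic helix-loop-helix partners that activate through UASINO. INO2 had 66.1, 71.4 and 72.4 CPM in wild type, 51.6, 68.2 and 55.3 in the TAF14 strain, 49.2, 43.4 and 48.8 with the W81A plasmid and 34.5, 35.3 and 37.6 in the deletion strain. INO2 thus stood in another order than INO1, with the W81A libraries below all TAF14 libraries. Its change was -0.97 ± 0.10 in the deletion strain and -0.57 ± 0.10 in the W81A strain, both against wild type (adjusted p = 6.3e-06 and 0.000827). With W81A it was also lower than with the TAF14 plasmid (-0.31 ± 0.10, adjusted p = 0.0262). That call did not hold when replicate 2 of the TAF14 strain was left out (-0.18, adjusted p = 0.0892) or when W81A replicate 2 was (adjusted p = 0.107), nor when only the 6 libraries compared were fitted (adjusted p = 0.0786). In the TAF14 strain against wild type INO2 was not called with all libraries, and was called when replicate 2 was left out (-0.39, adjusted p = 0.00197).

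INO4 had 29.5, 31.9 and 35.3 CPM in wild type, 18.3, 23.0 and 21.3 in the TAF14 strain, 27.5, 21.1 and 23.1 with the W81A plasmid and 18.9, 17.9 and 17.2 in the deletion strain. Wild type lay above all 9 libraries made from the deletion background. Relative to wild type INO4 was lower by log2 values of -0.84 ± 0.12 with TAF14 deleted, -0.62 ± 0.11 with the TAF14 plasmid and -0.43 ± 0.11 with the W81A plasmid (adjusted p = 7.59e-05, 0.00329 and 0.0123). The W81A call was lost without wild type replicate 3 (adjusted p = 0.0509) or W81A replicate 2 (adjusted p = 0.058).

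OPI1 (YHL020C, chromosome VIII 66242-67456), the repressor of the set, had the smallest drop of the 9 in the deletion strain against wild type, though not against the TAF14 strain. Its levels were 148, 163 and 132 CPM in wild type, 155, 168 and 148 in the TAF14 strain, 173, 177 and 177 with the W81A plasmid and 108, 123 and 115 in the deletion strain. The W81A libraries were above all others and the deletion libraries below all others. OPI1 was lower in the deletion strain than in wild type (-0.36 ± 0.08, adjusted p = 0.00197). It was the only one of the 9 genes called higher in the W81A strain than in wild type (0.25 ± 0.08, adjusted p = 0.0278). That call was lost in 5 of the 12 repeats that left out 1 library, with adjusted p up to 0.107.

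CHO1 (YER026C, chromosome V 207644-208474), for phosphatidylserine synthase, had 238, 258 and 208 CPM in wild type and 221, 228 and 224 in the W81A strain. The TAF14 strain had 171, 205 and 171 CPM, and the deletion strain 125, 163 and 171. The upper pair of groups overlapped, and so did the lower pair. CHO1 was lower than in wild type in the deletion strain (-0.61 ± 0.11, adjusted p = 0.00067) and in the TAF14 strain (-0.36 ± 0.11, adjusted p = 0.042, lost in 8 of 21 alternative settings). Between the W81A and TAF14 strains its value of 0.30 ± 0.11 was not called (adjusted p = 0.055). It was called in 7 of 21 alternative settings, DESeq2 among them, with adjusted p from 0.0118 to 0.151 over all 21.

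PSD1 (YNL169C, chromosome XIV 316169-317671), for the mitochondrial phosphatidylserine decarboxylase, had a small spread between replicates. It had 154, 157 and 149 CPM in wild type, 119, 126 and 131 in the TAF14 strain, 124, 121 and 118 with the W81A plasmid and 75.4, 72.7 and 80.7 in the deletion strain. Both plasmid strains lay between wild type and the deletion strain and overlapped each other. Against wild type the change was -1.01 ± 0.06 in the deletion strain, -0.34 ± 0.06 in the W81A strain and -0.30 ± 0.06 in the TAF14 strain (adjusted p = 3.14e-08, 0.000627 and 0.00407). W81A and TAF14 strains differed by -0.0487 ± 0.0562 (adjusted p = 0.545).

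CHO2 (YGR157W, chromosome VII 802440-805049) and OPI3 (YJR073C, chromosome X 572315-572935) encode the phospholipid methyltransferases that turn phosphatidylethanolamine into phosphatidylcholine, and their patterns differed. CHO2 had 812, 771 and 849 CPM in wild type, 951, 749.8 and 969 in the TAF14 strain, 792, 746 and 704 with the W81A plasmid and 523, 467 and 485 in the deletion strain. Only the deletion libraries stood apart, and replicate 2 of the TAF14 strain was here the lowest of its group. CHO2 was lower in the deletion strain than in wild type (-0.72 ± 0.09, adjusted p = 4.38e-05) and than in the TAF14 strain (-0.86 ± 0.09, adjusted p = 8.79e-06). The W81A strain was not called against wild type (-0.12 ± 0.09, adjusted p = 0.375) or against the TAF14 strain (-0.25 ± 0.09, adjusted p = 0.0513). Without replicate 2 of the TAF14 strain, the latter was -0.36 ± 0.07 and called (adjusted p = 0.00101), as it was in 4 other alternative settings of 21.

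OPI3 had 248, 297 and 183 CPM in wild type, 114, 169 and 105 in the TAF14 strain, 139, 135 and 133 with the W81A plasmid and 70.9, 96.6 and 86.0 in the deletion strain. Wild type was above all other libraries, the deletion strain below all others, and the plasmid strains overlapped. After INO1 it had the largest drop of the 9 in the deletion strain against wild type (-1.52 ± 0.19, adjusted p = 3.19e-05). It was lower than in wild type with either plasmid, by -0.91 ± 0.18 with the TAF14 plasmid and -0.84 ± 0.18 with the W81A plasmid (adjusted p = 0.00593 and 0.00441). W81A and TAF14 strains differed by 0.0675 ± 0.185 (adjusted p = 0.811). The call of the deletion strain against the TAF14 strain (-0.61 ± 0.19, adjusted p = 0.0158) did not hold when replicate 2 of the TAF14 strain was left out (-0.37, adjusted p = 0.0603), or deletion replicate 1 (adjusted p = 0.0652).

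**Figure D2:**
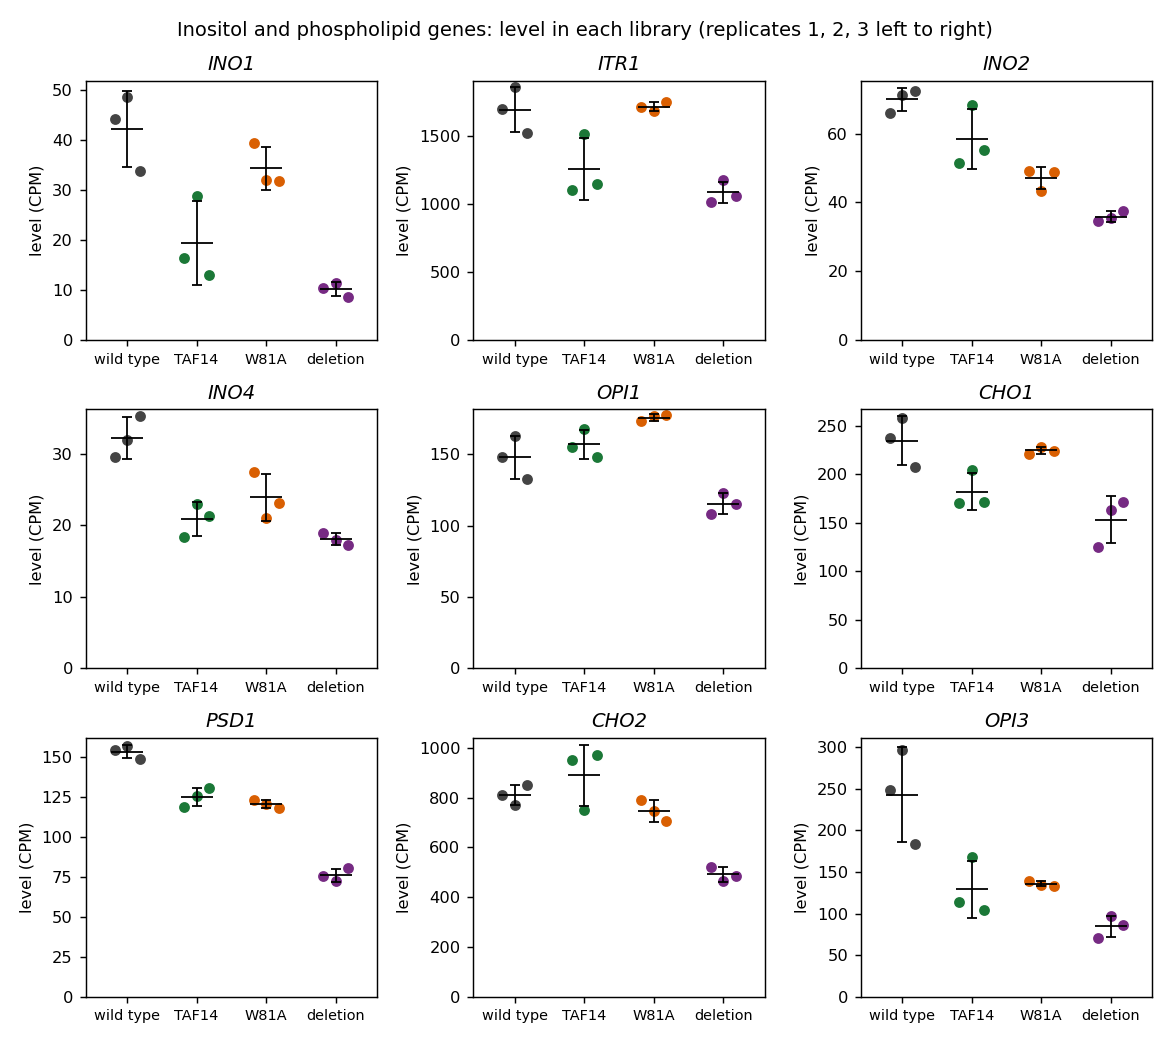
Level in CPM of the 9 genes in each of the 12 libraries (points, replicates 1 to 3 from left to right), with the mean and standard deviation of each group of 3 (horizontal line and whiskers). The deletion libraries have the lowest mean in every panel, and replicate 2 of the TAF14 strain is the highest of its group for INO1, ITR1, INO2, INO4, OPI1, CHO1 and OPI3 and the lowest for CHO2.

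Per kilobase of coding sequence, the wild type levels spanned a wide range. ITR1 was highest at 967 ± 95.4 CPM per kb, followed by OPI3 at 391 ± 91.7, CHO2 at 311 ± 14.9 and CHO1 at 282 ± 30.6, and the last 3 did not separate beyond their spread. OPI1 had 122 ± 12.5 CPM per kb and PSD1 102 ± 2.83. The activator genes INO2 and INO4 were lower and close to each other, at 76.5 ± 3.70 and 70.7 ± 6.38 CPM per kb. INO1 was the lowest of the 9 in wild type, at 26.4 ± 4.73 CPM per kb.

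All 9 genes were called in 1 direction in 2 of the 6 comparisons, those of the deletion strain with wild type and with the W81A strain. Against wild type, 9 of 9 were lower in the deletion strain, with log2 fold changes from -2.05 to -0.36 and a median of -0.84. Among all 5918 tested genes 24.9% were called lower in this comparison and 24% higher (48.9% in all), and the median over all genes was -0.0154. In all 9 the deletion libraries lay outside the range of the wild type libraries, which held for 58.2% of all genes in either direction. Against the deletion strain, 9 of 9 were higher in the W81A strain (0.40 to 1.76, median 0.61). Of all genes 22.7% were called higher there and 22.5% lower (45.2% in all), and 57.8% had groups that did not overlap. The INO4 call did not hold without W81A replicate 1 (0.29, adjusted p = 0.0709). These comparisons share the deletion libraries, so they are not independent of each other.

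Against the TAF14 strain, 6 of 9 were lower in the deletion strain (median -0.61), where 24.8% of all genes were called lower and 24.1% higher (48.9% in all). The groups did not overlap for 6 of the 9, against 54.1% of all genes. INO4, ITR1 and CHO1 were not called, at -0.22 ± 0.12, -0.21 ± 0.11 and -0.25 ± 0.11 (adjusted p = 0.152, 0.138 and 0.0836). The TAF14 strain itself was lower than wild type in 6 of 9 genes, where 8.75% of all genes were called lower and 8.11% higher (16.9% in all). Its libraries did not overlap wild type for 6 of the 9, against 33.5% of all genes. The median of the 9 was -0.36 and that of all genes 0.000374. INO2, OPI1 and CHO2 were not called, at -0.26 ± 0.09, 0.0866 ± 0.0762 and 0.13 ± 0.09 (adjusted p = 0.0787, 0.465 and 0.337). With replicate 2 of the TAF14 strain left out, INO2 was called lower and CHO2 higher (0.24, adjusted p = 0.0201), which made 8 of the 9. The share of all genes called in that repeat is not given here, so nothing is read from this count.

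Against wild type, the W81A strain had 4 genes lower (INO2, INO4, OPI3 and PSD1) and OPI1 higher, with 14.5% of all genes called lower and 12.7% higher (27.2% in all) and a median of -0.30 over the 9. Those 5 genes were also the ones without overlap, against 48% of all genes. Against the TAF14 strain it had INO1 and ITR1 higher and INO2 lower, where 15.8% of all genes were called higher and 17.2% lower, and the median of the 9 was 0.16. A total of 3 in 9 is close to the 33% of all genes called in this comparison, so the count says nothing particular about the set. The groups did not overlap for 5 of the 9, against 45.9% of all genes. The count was 5 in DESeq2 and 5 when replicate 2 of the TAF14 strain was left out. It was 2 when only the 6 libraries compared were fitted, with INO1 and INO2 no longer called and CHO1 called. The 33% belongs to the edgeR fit of all 12 libraries. Shares of all genes under these alternatives are not given here, so nothing is read from their counts.

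**Figure D3:**
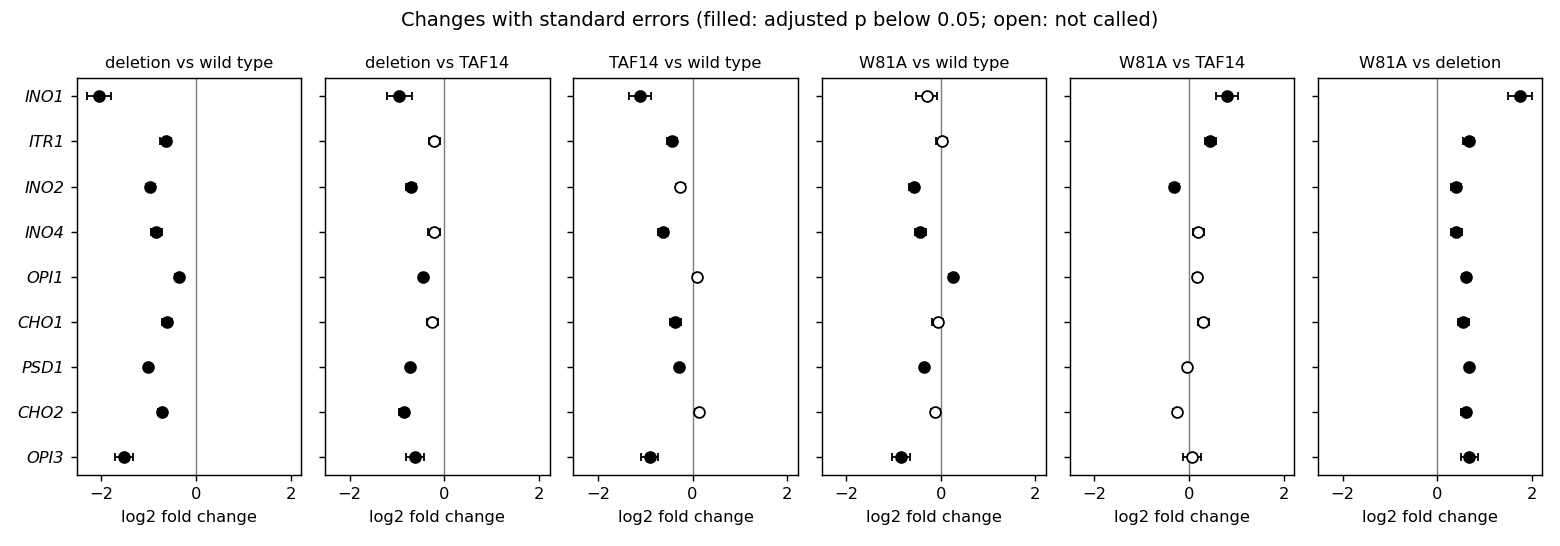
Log2 fold change (first-named group over the second) with its standard error for the 9 genes in the 6 comparisons, filled where the adjusted p was below 0.05. All 9 points are filled and to the left of 0 for the deletion strain against wild type, and all 9 are filled and to the right for the W81A strain against the deletion strain.

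Apart from the 9, the 5 genes whose log2 levels were most like those of INO1 over the 12 libraries, of 4799 named genes with enough reads, were HTA1, WSC4, KHA1, PMI40 and GIC1. Their Pearson r ranged from 0.924 to 0.949 (r = 0.949, 0.945, 0.935, 0.934 and 0.924 in that order), with Spearman rho of 0.804, 0.867, 0.958, 0.769 and 0.804. HTA1 encodes histone H2A and matches HTA2 over 100% of its length at 93.7% identity, so its reads are uncertain. WSC4, for a cell wall stress protein, had 52.8 CPM in wild type, 57.6 with the W81A plasmid, 27.4 with the TAF14 plasmid and 19.8 in the deletion strain. Among the 9 themselves, the r with INO1 was lowest for CHO2, at 0.555. The 12 libraries come from 4 groups, so these values mainly rank the group means.

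Other genes of the pathway, 49 in 6 lists, all passed the filter. In the deletion strain against wild type 16 were lower, 8 higher and 25 not called (median -0.0575), where 24.9% and 24% of all genes were called. The Kennedy pathway makes phosphatidylcholine and phosphatidylethanolamine from imported choline and ethanolamine. Of its 7 genes, 5 were lower and the other 2 not called (median -0.37). CKI1, 1 of those 2 (0.24 ± 0.13), lies on chromosome XII, which was shifted upward in the deletion libraries. The part of that shift in its value was not tested. ECT1, whose enzyme couples phosphoethanolamine to CTP, had 90.3, 93.7 and 82.4 CPM in wild type and 50.0, 55.2 and 52.3 in the deletion strain (-0.76 ± 0.06, adjusted p = 1.38e-06). PCT1, its counterpart for phosphocholine, was lower by -0.67 ± 0.06 and the ethanolamine phosphotransferase gene EPT1 by -0.53 ± 0.06. ECT1 stood at 92.1 ± 4.06 CPM with the TAF14 plasmid and 93.3 ± 2.05 with the W81A plasmid, both overlapping wild type. PCT1 was lower than wild type with either plasmid (-0.42 ± 0.06 with TAF14 and -0.33 ± 0.06 with W81A). Between the W81A and TAF14 strains, EPT1 and the ethanolamine kinase gene EKI1 were higher (0.19 ± 0.06 and 0.18 ± 0.06, adjusted p = 0.0256 and 0.0483). The choline phosphotransferase gene CPT1 was not called there (0.14 ± 0.07).

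Of 12 genes that make or consume phosphatidic acid and CDP-diacylglycerol, 4 were lower and 2 higher in the deletion strain than in wild type (median 0.0146). The lysophospholipid acyltransferase gene ALE1 was lower (-0.42 ± 0.05), as was CDS1, for CDP-diacylglycerol synthase (-0.39 ± 0.05), and GPT2, for a glycerol-3-phosphate acyltransferase, was higher (0.47 ± 0.07). Between the W81A and TAF14 strains PAH1, for the phosphatidate phosphatase, and NEM1, for the catalytic subunit of the phosphatase that activates it, were lower (-0.25 ± 0.07 and -0.31 ± 0.07). ALE1 was also lower between these strains (-0.15 ± 0.05, adjusted p = 0.0434). In that list 3 were lower and 2 higher in this comparison, where 17.2% of all genes were called lower and 15.8% higher. These counts, and the 6 of 12 for the deletion strain beside its 48.9%, lie near the background.

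Among 10 genes for inositol phosphates and for uptake of inositol or its esters, 3 were higher and 2 lower in the deletion strain than in wild type (median 0.0357). Of all genes 24% were called higher there and 24.9% lower, so these counts lie near the background. GDE1, a glycerophosphocholine phosphodiesterase gene, had 93.9, 93.7 and 91.9 CPM in wild type and 168, 156 and 145 in the deletion strain (0.74 ± 0.08, adjusted p = 1.25e-05). KCS1, an inositol pyrophosphate synthase gene, was lower (-0.35 ± 0.06), and so was PLC1, for phospholipase C (-0.32 ± 0.06). Against the TAF14 strain, the W81A strain had PLC1 higher (0.24 ± 0.06), GIT1, the glycerophosphoinositol permease gene, lower (-1.14 ± 0.29, at 2.05 against 4.55 CPM) and VIP1 lower (-0.45 ± 0.13). VIP1, a further inositol pyrophosphate synthase gene, is on chromosome XII, which was shifted upward in replicate 2 of the TAF14 strain and in the deletion libraries, where VIP1 was 1 of the 3 higher genes (0.62 ± 0.12).

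Of 5 other phospholipid synthases, 1 was lower in the deletion strain than in wild type, PSD2 (-0.27 ± 0.05), the second phosphatidylserine decarboxylase gene. Among all genes 24.9% were called lower in this comparison. PGS1 and GEP4, of cardiolipin synthesis, were not called there (0.0690 ± 0.0750 and -0.22 ± 0.10). Between the W81A and TAF14 strains GEP4 and PGS1 were not called (0.27 ± 0.10 and 0.16 ± 0.07, with adjusted p = 0.0546 and 0.112).

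In the list of 12 regulators acting on INO1, changes were small. In the deletion strain against wild type, INO80 (0.24 ± 0.05) and RPD3 (0.22 ± 0.06), for a remodeller ATPase and a histone deacetylase, were higher. INO80 overlaps the entry YGL149W by 2 bases, so its reads are slightly uncertain. SNF2, the SWI/SNF ATPase gene, was lower (-0.28 ± 0.07), and UME6 (adjusted p = 0.0487), IRE1 and GCN5 were the other 3 called lower. Of the 12, 2 were thus higher and 4 lower, where 24% of all genes were called higher and 24.9% lower. Between the W81A and TAF14 strains GCN5, for a histone acetyltransferase, and CBF1 were higher (0.27 ± 0.06 and 0.23 ± 0.07), and UME6 was not called (0.28 ± 0.10, adjusted p = 0.0596).

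Of the 3 fatty acid synthesis genes, 1 was higher in the deletion strain than in wild type. ACC1, for acetyl-CoA carboxylase, had 4741, 4221 and 4006 CPM in wild type and 8043, 7016 and 7337 in the deletion strain (0.79 ± 0.10, adjusted p = 2.78e-05). FAS1 and FAS2, the fatty acid synthase subunit genes, were not called there (0.0768 ± 0.0968 and 0.00440 ± 0.106). FAS1 was higher in the W81A strain than in the TAF14 strain (0.49 ± 0.10, adjusted p = 0.00212), whereas FAS2 and ACC1 were not called (0.27 ± 0.11 and 0.16 ± 0.10). The UASINO core was in the 500 bases before 10 of the 49 genes, ACC1 and FAS2 among them. Of these 10, 5 were lower and 1, ACC1, was higher in the deletion strain than in wild type. Of the 39 without it, 11 were lower and 7 higher. Among all genes 48.9% were called in this comparison, and with so few genes nothing is read from the counts.

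**Figure D4:**
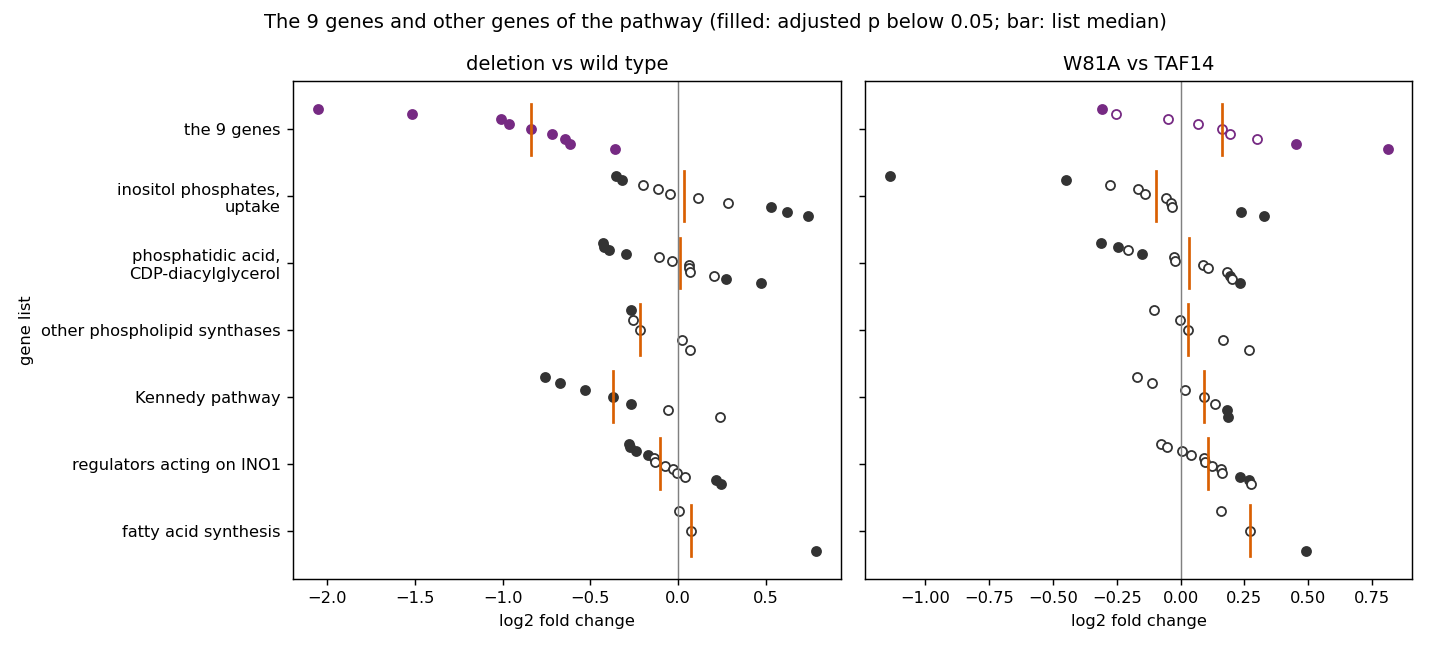
Log2 fold change of each gene for the 9 genes and the 6 other lists of the pathway, in the deletion strain against wild type (left) and between the W81A and TAF14 strains (right, W81A over TAF14), with the list median as an orange bar and filled points where the adjusted p was below 0.05. On the left all 9 genes are to the left of 0 with a median of -0.84, and the other list medians lie between -0.37 and 0.0768.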

How the data were processed

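The authors deposited raw read counts per gene for 12 libraries. Per the labels, RNA was DNase-treated, depleted with Ribo-Zero Gold and made into stranded TruSeq libraries. The submitters' processing notes name TopHat2 2.0.14, SAMtools 0.1.19, HTSeq 0.6.1p1, DESeq2 1.8.1 and sacCer3. The strand setting of the counting is not given in the sources used here. RefSeq lists no gene that overlaps any of the 9, and blastn 2.17.0+ found no near copy (90% identity over 20% of the length). Of 6692 entries, 684 (0.952% of counts) had no match in that annotation, stayed in the fit and are not named. Whether any of these 684 overlaps 1 of the 9 genes was not checked.

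One model with 4 group terms was fitted to all 12 libraries in R 4.3.3 with edgeR 4.0.16 (quasi-likelihood F-test, trimmed mean of M-values, default filter, 5918 genes tested, 8 residual degrees of freedom). Adjusted p-values are Benjamini-Hochberg over all tested genes within a comparison, and a gene was called below 0.05. Standard errors come from the F statistic. The fit was also run on simulated counts, which held no chromosome XII shift and no outlying library. The outcome is not given, and nothing here rests on it. Whether the replicates of a group came from different cultures is not given, so the p-values reflect the spread among these libraries, which may be technical. The 9 genes and the lists were chosen with earlier results of these data known. From each list, the 3 genes with the smallest p were named, once for W81A against TAF14 and once for the deletion against wild type. Others named belong to a count given beside them. One gene that this rule picked is not reported here. The CATGTGAA form was added after the data were seen. Alternatives were DESeq2 1.42.0, limma-voom (limma 3.58.1), other scalings and filters, 6-library fits, no chromosome XII, a replicate block and leaving out each library.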

Additional observations from a re-analysis of the deposited data

How the results depend on the processing

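For the 9 genes but not for the list genes, each of the 6 counts of called genes and each change was recomputed under 21 alternatives. All 9 genes stayed lower in the deletion strain than in wild type in every one of them, the repeat without chromosome XII included. For the deletion strain against wild type, INO1 ranged from -2.19 to -1.94. Among the 9 genes, the count between the W81A and TAF14 strains was 3, became 5 in DESeq2, 5 with the replicate block (CHO1 and CHO2 added) and 2 to 5 on leaving out 1 library. That for the W81A strain against wild type was 5, and 3 to 5 on leaving out 1 library, with 3 without wild type replicate 3 or W81A replicate 2. For the TAF14 strain against wild type the count was 6, and 4 to 8 on leaving out 1 library. The share of all genes called under each alternative is not given here, so these counts have no background beside them. Between the W81A and TAF14 strains INO1 lost its call when only the 6 libraries compared were fitted (0.81, adjusted p = 0.0521), and ranged from 0.60 to 1.23 on leaving out 1 library. The cause was not tested. Differences that changed sign on leaving out 1 library were uncalled: OPI3 between the W81A and TAF14 strains (-0.0616 to 0.31), and CHO1 (-0.14 to 0.0117) and ITR1 (-0.0526 to 0.0897) in the W81A strain against wild type. The replicate block changed none of the other 5 counts, and the numbers were not taken to pair the samples, since same-numbered libraries had correlations of deviations from -0.336 to 0.487. Of 72 repeats of a group level with another scaling, 65 moved by less than 1 standard deviation. INO1 rested on 89 to 473 reads a library, the fewest of the 9 genes in the deletion strain.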
